A study of Mus musculus with 15 samples.

Results

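A gene is copied into RNA together with its introns, and splicing removes them, often while the polymerase is still on the gene. RNA that lies in an intron can therefore be precursor RNA not yet spliced, an intron kept in the message, an excised intron that persisted as a lariat or a circle, or a separate transcript that starts within the intron on either strand. In a library that keeps RNA without a poly(A) tail, precursor RNA gives reads along the introns, and an assembler can turn stretches of such reads into short transcripts of 1 exon.

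The intronic transcripts described here were the 11124 assembled transcripts of the mouse kidney that carried class code i, which marks a transcript lying wholly within an intron of a reference gene. They made up 8.62% of the 129029 linear transcripts listed. Kidneys came from 15 male C57BL/6 mice (C57BL/6J in the methods of the study) for which the labels name no treatment, 5 at 3 months, 5 at 12 months and 5 at 24 months of age, with 1 stranded library of total RNA per mouse, and a replicate is named below by the number in its label. The protocol in the labels describes depletion of ribosomal RNA, whereas the methods of the study describe purification with oligo(dT), and which of the 2 was used was not tested. Whole kidney was sampled, so that fewer cells of a type and less RNA per cell cannot be told apart.

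The 7 tubule markers (Lrp2, Slc34a1, Umod, Slc12a1, Slc12a3, Aqp2 and Kap) summed to between 6710 and 12205 FPKM (fragments scaled to the length of the transcript and the size of the library) over the 15 mice. All 5 B and plasma cell markers were listed, and they summed to 2.75 to 12 FPKM at 3 months, 19.7 to 123 FPKM at 12 months and 16.7 to 58.1 FPKM at 24 months, with 2 of them called higher at 24 than at 3 months. The 2 adrenal markers summed to 1.05 to 1.75 FPKM at 3 months and 1.87 to 3.24 FPKM at 24 months, with the adrenal enzyme Cyp11b1 below 0.1 FPKM. The sums of podocyte, endothelial, T cell, macrophage, red blood cell and adipocyte markers overlapped between these ages. The part of these differences in the intronic values below was not tested.

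The host of an intronic transcript was taken as the sum of the rows of the same gene name that matched the reference gene, were contained in it, were splice forms of it or overlapped its exons. A host was found for 11107 members, in 3334 genes. Of these members, 10485 (94.4%) lay on the strand of the host and 622 (5.6%) on the opposite strand. A single exon made up 10912 members (98.1%), and their length ran from 200 to 125060 bases with a median of 623 bases. In the GENCODE M21 annotation of GRCm38, which is the build of the deposited coordinates, 10851 members (97.5%) lay inside an intron of their host gene. Of all members, 114 (1.02%) touched an annotated exon on their own strand, and 0 held a whole miRNA, snoRNA, snRNA or scaRNA gene on that strand. Transcripts that overlap reference exons on their strand mostly carry other class codes, so both counts are low by selection. The host was a protein-coding gene for 10065 of the 10891 members whose host name is in the annotation (92.4%).

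The supplement of the study holds the sequence of 3 members. Parts of them are shown because they let the edges of an assembled intronic fragment be read base by base. For MSTRG.39067.1 and MSTRG.3870.1, capitals mark runs in which 1 base or a pair of bases repeats. MSTRG.39067.1 is a fragment of 318 bases in intron 1 of Cdcp1, which encodes a transmembrane protein with CUB domains, at chr9:123204574-123204891 (GRCm38, minus strand). MSTRG.3870.1 covers 6197 bases of intron 2 of Rhobtb1, a gene of an atypical small GTPase, at chr10:69163049-69169245 (plus strand). All sequences are written 5′ to 3′ on the strand of the transcript.
MSTRG.39067.1, bases 1 to 100: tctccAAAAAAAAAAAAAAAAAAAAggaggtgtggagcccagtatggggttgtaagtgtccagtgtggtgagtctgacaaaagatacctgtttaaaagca
MSTRG.39067.1, bases 219 to 318: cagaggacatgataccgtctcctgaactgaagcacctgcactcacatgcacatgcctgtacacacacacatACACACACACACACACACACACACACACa
MSTRG.3870.1, bases 1 to 100: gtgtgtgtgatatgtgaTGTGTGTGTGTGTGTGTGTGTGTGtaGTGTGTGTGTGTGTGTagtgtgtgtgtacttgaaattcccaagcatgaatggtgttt
MSTRG.3870.1, bases 6098 to 6197: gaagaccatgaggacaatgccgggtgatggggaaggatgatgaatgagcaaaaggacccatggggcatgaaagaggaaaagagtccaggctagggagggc

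Both ends of the Cdcp1 fragment fell in simple repeats, 20 copies of A from base 6 and 14 copies of AC from base 290. The Rhobtb1 fragment began with 12 copies of TG from base 18 and 8 copies of GT from base 44, and its last 100 bases held no such run. Neither carried the letters AATAAA or ATTAAA, the usual polyadenylation signals, in its last 50 bases.

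The other sequence is that of MSTRG.34276.1, which covers 645 bases in intron 3 of Kat8, a histone H4 acetyltransferase, at chr7:127915951-127916595 on the minus strand, opposite to Kat8. Its end is shown because 140 of the bases, in capitals, are the reverse complement of part of the M21 transcript ENSMUST00000206071.1, a Kat8 transcript annotated with a retained intron. It too held neither polyadenylation signal in its last 50 bases.
MSTRG.34276.1, bases 491 to 645: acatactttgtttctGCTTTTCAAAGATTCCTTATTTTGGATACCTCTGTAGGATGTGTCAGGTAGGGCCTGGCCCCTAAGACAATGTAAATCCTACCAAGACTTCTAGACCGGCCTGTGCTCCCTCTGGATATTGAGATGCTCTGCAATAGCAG

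The members were not spread evenly along their introns. Of 10241 same-strand members placed in an M21 intron, 6435 (62.8%) lay nearer to the upstream exon of the host than to the downstream one. The median distance was 8338 bases to the upstream exon and 16115 bases to the downstream exon, in introns with a median length of 31588 bases. With each intron divided into 10 equal parts, the midpoints of 13.7% of the members fell in the second part and those of 3.24% in the last. Members on the opposite strand leaned the other way. Of 598 placed, 244 (40.8%) lay nearer to the upstream exon of the host, and the seventh part was the fullest with 15.1%. Measured along its own strand, each kind thus lay more often toward the end of the intron that comes first on that strand. First introns held 32.6% of the same-strand members and 39.6% of the length of the introns that held them. Among 383 introns with 5 or more same-strand members, the median rank correlation between position and mean FPKM was -0.176, and it was below 0 in 257 introns. That is a description over members that share a host and a base composition.

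**Figure D1:**
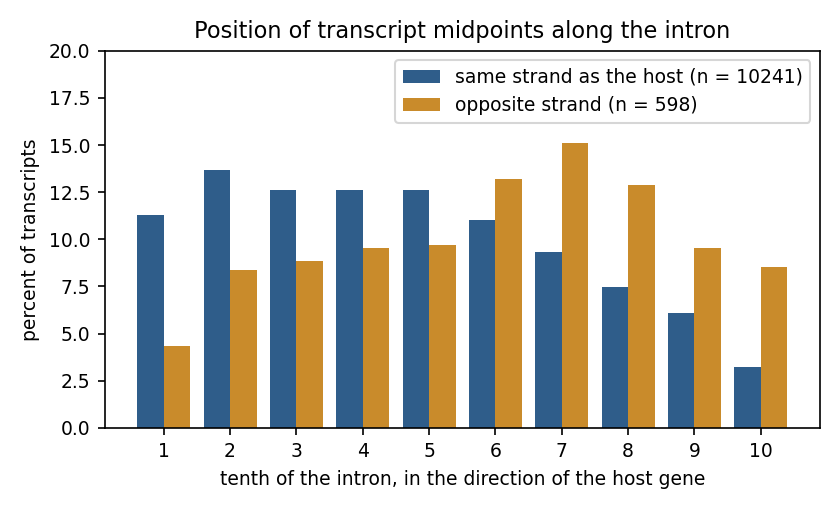
Percent of intronic transcripts (vertical axis) whose midpoint fell in each of 10 equal parts of the host intron, numbered in the direction of the host gene (horizontal axis), for 10241 members on the strand of the host (blue) and 598 on the opposite strand (ochre). The blue bars fall to 3.24% in the last part, and the ochre bars are highest in the seventh at 15.1%.

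A few long genes held many members. Nckap5 and Prkg1, the latter encoding a cGMP-dependent protein kinase, held 100 each. The transcription factor gene Sox5 held 84, Csmd1 held 79 and Immp2l, for a mitochondrial inner membrane peptidase, held 66. The hosts themselves were low, at 1.92 ± 0.686 FPKM for Nckap5, 1.51 ± 0.342 FPKM for Prkg1, 1.72 ± 0.376 FPKM for Sox5, 1.04 ± 0.238 FPKM for Csmd1 and 0.582 ± 0.254 FPKM for Immp2l (SD, n = 15). A typical member of these hosts was above 0 in 3 to 5 mice, and the median level ran from 0.226 FPKM in Csmd1 to 0.276 FPKM in Prkg1. By contrast, 1696 host names held 1 member each.

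Levels were low and detection was patchy. The mean FPKM over the 15 mice had a median of 0.297 over the members, and 1090 members reached a mean of at least 1 FPKM, 35 at least 5 FPKM and 10 at least 10 FPKM. Every member was above 0 in at least 1 mouse, 6211 were above 0 in 5 mice or fewer, and 379 (3.41%) were above 0 in all 15. For comparison, 39.3% of the reference transcripts, 7.04% of the assembled intergenic transcripts and 16.5% of the assembled antisense transcripts were above 0 in all 15 mice. The 379 broadly detected members had a median length of 5117 bases, and 36.9% of them had more than 1 exon, against a median of 491 bases and 0.628% among the members above 0 in 1 to 5 mice. Their hosts had a median of 6.48 FPKM against 2.03 FPKM. In 286 cases a member was assembled in a locus together with other transcripts, and 22.4% of those were above 0 in all 15 mice against 2.91% of the rest.

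Many values of 0 fell in transcripts that were well covered in other mice. For 986 members, the mice above 0 had on average at least 30000 aligned bases on the transcript, and 730 of these (74%) were listed at 0 in at least 1 mouse. Over these members 25.9% of the values were 0, beside 5.33% for reference transcripts, 12.5% for assembled splice isoforms and 17.9% for intergenic transcripts chosen in the same way. A value of 0 is therefore given below as listed at 0 and not as absence, and why these values were 0 was not tested.

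The number of members above 0 was 4281 to 5087 per mouse at 3 months, 3358 to 4950 at 12 months and 3621 to 4604 at 24 months, and the ages overlapped. It was lower in the deeper libraries. Against the aligned bases on all listed transcripts, which ran from 3.54 to 5.7 Gb, Pearson's r was -0.75 (permutation p = 0.00155, adjusted p = 0.0031) and Spearman's rho was -0.75 (permutation p = 0.00232, adjusted p = 0.00348) over the 15 mice. The r was -0.83 without the 2 mice farthest from the median depth, -0.62 with each age centred (permutation p = 0.0437), and -0.73, -0.55 and -0.72 within the 3-, 12- and 24-month mice. The number of all listed transcripts above 0 moved the other way, with r = 0.77 (permutation p = 0.00063, adjusted p = 0.00189) and rho = 0.80 (permutation p = 0.00054, adjusted p = 0.00189). That r was 0.54 with each age centred (permutation p = 0.0372), and 0.55, 0.69 and 0.51 within the 3-, 12- and 24-month mice. Every 3-month mouse had fewer such transcripts (at most 86350) than every older mouse (at least 87548), so that depth and age are partly mixed in it. The share of bases on intronic transcripts had r = -0.33 (permutation p = 0.226, adjusted p = 0.226) and rho = -0.48 (permutation p = 0.0715, adjusted p = 0.0858). The adjusted values cover these 3 relations.

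**Figure D2:**
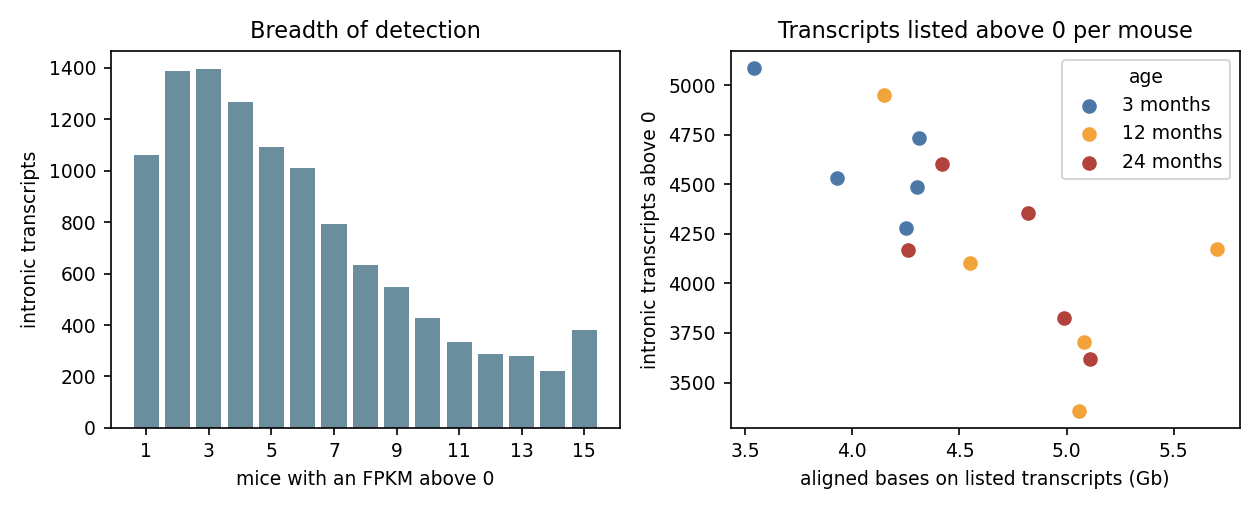
Left, number of intronic transcripts (vertical axis) by the number of mice in which they were above 0 FPKM (horizontal axis). Right, for each of the 15 mice, the number of intronic transcripts above 0 (vertical axis, which does not start at 0) against the aligned bases on all listed transcripts in Gb (horizontal axis), coloured by age. The points go from 5087 transcripts at 3.54 Gb to 3358 at 5.06 Gb and 4173 at 5.7 Gb.

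The members carried 3.21 ± 0.141% of the aligned bases of the listed transcripts at 3 months, 2.99 ± 0.217% at 12 months and 3.41 ± 0.373% at 24 months (SD, n = 5 each). The mice ran from 3.09 to 3.42% at 3 months, 2.69 to 3.22% at 12 months and 3.01 to 3.92% at 24 months, and the ages overlapped. The highest share was that of replicate 33 at 24 months and the lowest that of replicate 17 at 12 months. This share is a description and was given no test.

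The most abundant member lay on the opposite strand of its host. MSTRG.25880.1, in intron 3 of the centrosome gene Cep85 (chr4:134159797-134161271, plus strand), had 59.5, 68.3, 51.8, 48.3 and 47.9 FPKM in the 3-month mice, 55, 34.7, 33.7, 50.4 and 24.5 FPKM in the 12-month mice and 29.1, 0, 43.8, 33.9 and 34.7 FPKM in the 24-month mice. Every 24-month mouse was below every 3-month mouse, with 1 of them listed at 0, and the change did not pass the test (log2 fold change -1.66 ± 0.95 (SE), limma adjusted p = 0.72). With the value listed at 0 left out, an alternative chosen after seeing the data, the log2 fold change was -0.63. Its neighbour on the same strand and in the same intron, MSTRG.25881.1 (chr4:134161921-134166313), had 27 ± 3.35 FPKM at 3 months, 24.2 ± 9.5 FPKM at 12 months and 20.4 ± 3.41 FPKM at 24 months (SD, n = 5 each), and 14.7% of it lay opposite annotated exons.

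MSTRG.5118.1, the next in level, lay opposite to Camk2b, which encodes a subunit of calcium/calmodulin-dependent kinase II and averaged 1.14 FPKM itself. It ran from 0 to 35.6 FPKM at 3 months, 0 to 30.8 FPKM at 12 months and 2.43 to 29.6 FPKM at 24 months, so that mice of 1 age covered most of the range. MSTRG.20774.10, opposite to the noncoding gene Gm14232, was assembled in 1 locus with transcripts of another gene. It had 5.46, 5.5, 4.72, 4.17 and 11.5 FPKM at 3 months, 9.97, 13.2, 15.9, 14.8 and 11.8 FPKM at 12 months and 15.6, 8.87, 17, 14.8 and 15.8 FPKM at 24 months, while its named host averaged 0.0797 FPKM. It was higher at 24 than at 3 months (log2 fold change 1.13 ± 0.26, limma adjusted p = 0.275), with replicate 9 at 3 months above replicate 32 at 24 months. Opposite-strand members exceeded their host in mean FPKM in 170 of 622 cases (27.3%), and same-strand members in 420 of 10485 cases (4.01%), although the median levels of both kinds were close, at 0.281 and 0.298 FPKM.

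Of the 10 most abundant members with a host, 6 lay on its strand. In intron 2 of Esrrg, which encodes the orphan nuclear receptor ERR gamma, a regulator of mitochondrial genes, MSTRG.2802.7 of 28758 bases in 2 exons had 13.7 ± 1.89, 13.6 ± 1.59 and 15 ± 1.41 FPKM at 3, 12 and 24 months (SD, n = 5 each). The gene itself had 31.4 ± 3.2, 33.5 ± 1.25 and 32.6 ± 2.76 FPKM. MSTRG.4657.1 in the LIM-domain gene Csrp2 had 13.5 ± 4.13, 14.8 ± 3.84 and 15.1 ± 3.64 FPKM. MSTRG.13309.12 in the zinc finger gene Zfp740 had 8.05 ± 2.62, 10.3 ± 2.58 and 11.9 ± 2.88 FPKM. MSTRG.30947.1 in Frmd4b, which encodes a scaffold with a FERM domain, had 15.1 ± 2.26, 11.8 ± 3.54 and 10.6 ± 3.65 FPKM. In each of these 4 the ages overlapped, and none passed the fold limit between 3 and 24 months.

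MSTRG.27413.1, 490 bases in intron 7 of Ppargc1a (chr5:51480342-51480831, minus strand), the coactivator of mitochondrial biogenesis, had 10.1 ± 2.48, 11.5 ± 3.66 and 12.3 ± 3.72 FPKM at the 3 ages (SD, n = 5 each). It lay wholly within ciRNA472, an intronic circular RNA of 15601 bases at chr5:51474416-51490016 in an intron of 15605 bases. That circle had a mean estimated count of 2296 per mouse, rank 6 among the 1119 intronic circular RNAs listed. The linear FPKM and the circle count had r = 0.55 (permutation p = 0.0328, adjusted p = 0.0492) and rho = 0.40 (permutation p = 0.14, adjusted p = 0.21) over the 15 mice, and r = 0.41 without the 2 mice farthest from the median count. Apart from those that cross the junction, reads of a circle and of a linear fragment inside it cannot be told apart.

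In all, 23 members lay over their whole length inside 14 intronic circular RNAs, 22 of them on the same strand. Among the longest was MSTRG.8126.3 (3728 bases) in intron 7 of Mbip, which was above 0 in 8 mice.

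Of these 23, the 3 with a mean of at least 1 FPKM were set against their circle. MSTRG.8244.1 in 2700049A03Rik had r = 0.71 (permutation p = 0.00367, adjusted p = 0.011) and rho = 0.70 (permutation p = 0.00448, adjusted p = 0.0134) with ciRNA759, and r = 0.77 without the 2 farthest mice. The adjusted values cover the 3 pairs, the Ppargc1a pair included.

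How far the members followed their host across mice was first described over all members with a mean of at least 1 FPKM. With each age centred, the median Spearman correlation with the host was 0.091 over 1021 same-strand members (quartiles -0.14 and 0.30) and 0.10 over 68 opposite-strand members (quartiles -0.17 and 0.36). Of the same-strand members 9.11% had a rho above 0.5 and 3.13% a rho below -0.5. Without the limit on level, the median was 0.0023 over all 10485 same-strand members, with 4.56% above 0.5 and 3.86% below -0.5. It was 0.017 over all 622 opposite-strand members. At a mean of at least 5 FPKM the medians were 0.32 over 31 same-strand and 0.51 over 4 opposite-strand members. Among members above 0 in all 15 mice the medians were 0.14 over 327 same-strand and 0.053 over 52 opposite-strand members. Where the same-strand members of a host were summed, the median was 0.046 over 752 hosts, 0.022 over 393 hosts with 5 or more members and -0.017 over 216 hosts with 10 or more. Pairs of same-strand members in 1 host had a median rho of 0.19, over 399 pairs in 137 hosts. All these correlations share the 15 libraries and their scaling, and are descriptions.

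**Figure D3:**
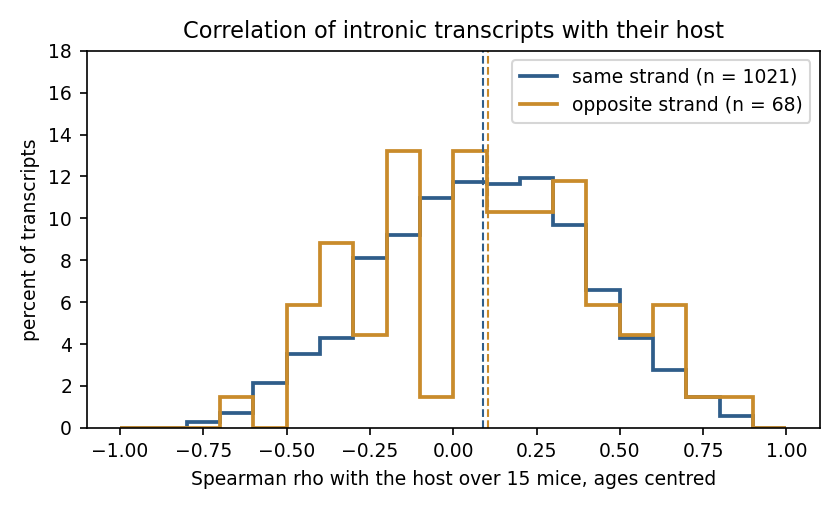
Distribution of the Spearman correlation with the host over 15 mice with each age centred (horizontal axis), as a percent of the members with a mean of at least 1 FPKM (vertical axis), for 1021 same-strand (blue) and 68 opposite-strand members (ochre). The dashed lines are the medians of 0.091 and 0.10.

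The 10 most abundant members with a host were tested one by one, with Benjamini-Hochberg adjustment over the 10. MSTRG.22987.1 and Gm15441, a noncoding gene antisense to Txnip, made the closest pair. They had r = 0.88 (permutation p = 5e-05, adjusted p = 0.0005) and rho = 0.86 (permutation p = 0.00016, adjusted p = 0.0016), and r = 0.87 without the 2 mice farthest from the median host level. With ages centred they had r = 0.82 (permutation p = 0.00451, adjusted p = 0.0245) and rho = 0.69 (permutation p = 0.0392, adjusted p = 0.0979). The Ppargc1a member was positive too, with r = 0.62 (permutation p = 0.0132, adjusted p = 0.0662) and rho = 0.64 (permutation p = 0.0126, adjusted p = 0.0421), and r = 0.67 without the 2 farthest mice. With ages centred it had r = 0.68 (permutation p = 0.0049, adjusted p = 0.0245) and rho = 0.68 (permutation p = 0.00756, adjusted p = 0.0276).

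The opposite-strand MSTRG.5118.1 and Camk2b had r = 0.53 (permutation p = 0.0433, adjusted p = 0.144) and rho = 0.71 (permutation p = 0.00382, adjusted p = 0.0191), and r = 0.44 without the 2 farthest mice. The other 7 had adjusted p-values of 0.202 or more for rho. Among them the same-strand member in Esrrg had r = 0.23 (permutation p = 0.402, adjusted p = 0.669) and rho = 0.15 (permutation p = 0.593, adjusted p = 0.659), and the one in Zfp740 had r = -0.26 (permutation p = 0.343, adjusted p = 0.669) and rho = -0.3 (permutation p = 0.272, adjusted p = 0.412). For Cep85, MSTRG.25880.1 had r = 0.04 (permutation p = 0.817, adjusted p = 0.817) and rho = 0.47 (permutation p = 0.0806, adjusted p = 0.202), and r = 0.29 without the 2 farthest mice. Cep85 had 12 FPKM in replicate 7 at 3 months and at least 52.8 FPKM in every other mouse. With ages centred MSTRG.25880.1 had r = 0.13 (permutation p = 0.0959, adjusted p = 0.169) and rho = 0.66 (permutation p = 0.00828, adjusted p = 0.0276). The remaining members also differed in sign with ages centred. Their rho was -0.52 for Frmd4b, -0.37 for Gm14232, -0.34 for Zfp740 and -0.047 for Csrp2. It was 0.24 for Esrrg, 0.36 for MSTRG.25881.1 in Cep85 and 0.72 for Camk2b (permutation p = 0.00728, adjusted p = 0.0276). Apart from Camk2b, each of these had an adjusted p of 0.145 or more.

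Between 24 and 3 months, 89 of 10758 members tested were called, which means a limma p under 0.05 before adjustment and an absolute log2 fold change above 1 on the scale of log2(FPKM + 1). That was 0.827% of the members, beside 0.795% of all 124719 rows tested. Of the called members 66 were higher at 24 months and 23 lower, or 0.613% and 0.214%, beside 0.465% and 0.330% of all rows. The split was 392 higher and 302 lower at a pseudocount of 0.1 and 374 higher and 241 lower as TPM. Those settings called 6099 and 4262 of all rows. TPM rescales FPKM to the same, larger sum in each mouse, so that the pseudocount of 1 also weighs less, and the parts of the 2 changes cannot be told apart. Scaled to the sum of the intronic transcripts the split was 39 higher and 24 lower, with 946 of all rows called. In 21 of the 89 (0.195% of the members tested) the 5 old and the 5 young mice did not overlap, 19 higher and 2 lower, beside 0.238% of all rows, 0.146% higher and 0.0922% lower. Adjusted over the whole table, the p of 5 called members stayed under 0.05, all of them higher at 24 months, beside 0.0176% of all rows. The other calls rest on the p before adjustment. Values of 0 were frequent, with a mouse listed at 0 in 82 of the 89 and all mice of 1 age in 24. By class, 0.800% of the intergenic, 1.05% of the antisense, 0.554% of the reference and 1.92% of the splice isoform rows were called. Among the 379 members above 0 in all 15 mice, 6 were called, 5 of them higher, or 1.58% beside 1.04% of the 48507 rows above 0 in all mice.

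MSTRG.12085.1 gave the smallest p. It is a transcript of 954 bases in 2 exons, in intron 1 of Prlr, the prolactin receptor, on the opposite strand (chr15:10251512-10272080, minus strand). It had 0, 0.0566, 0.0592, 0 and 0.0479 FPKM in the 3-month mice, 0.801, 0.259, 0.539, 0.468 and 0.379 FPKM in the 12-month mice and 2.14, 1.61, 1.89, 1.32 and 2.33 FPKM in the 24-month mice. No pair of ages overlapped. The log2 fold change between 24 and 3 months was 1.46 ± 0.13 (SE, limma adjusted p = 0.0173). Prlr itself had 6.95 ± 4.54 FPKM at 3 months and 14.9 ± 3.09 FPKM at 24 months (SD, n = 5 each; log2 fold change 1.17, limma adjusted p = 0.172). The ratio of member to host, fitted with 1 added to both, did not pass the test (log2 fold change 0.28 ± 0.38, limma adjusted p = 0.847). The member had at most 0.0592 FPKM at 3 months, where the added 1 outweighs it. That fit therefore cannot tell whether the member rose by a larger factor than Prlr.

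In Gm26708, Wipi2 and Stau1 a member was at or close to 0 in the young mice and above 1 FPKM in all old ones. MSTRG.33421.1, in intron 2 of the noncoding gene Gm26708 (chr7:84156263-84160298, plus strand), was listed at 0 in all 3-month mice, had 0, 0, 1.05, 0 and 0 FPKM at 12 months and 1.2, 1.21, 1.7, 1.7 and 1.82 FPKM at 24 months (limma adjusted p = 0.0173). MSTRG.29163.1, in intron 2 of Wipi2, which encodes a phosphoinositide-binding autophagy protein (chr5:142640084-142641127, plus strand), was also listed at 0 in all 3-month mice, had 0.887, 0, 0, 0 and 0 FPKM at 12 months and 1.47, 1.83, 2.18, 1.08 and 1.67 FPKM at 24 months (limma adjusted p = 0.0173). Wipi2 itself had 8.75 ± 0.633 and 9.57 ± 3.2 FPKM at 3 and 24 months (SD, n = 5 each). MSTRG.21442.1, in intron 1 of Stau1, which encodes a protein that binds double-stranded RNA (chr2:166977376-166978482, minus strand), had 0, 0, 0, 0 and 0.336 FPKM at 3 months, 1.1, 0, 0, 0 and 0 FPKM at 12 months and 1.72, 1.17, 2.13, 2.19 and 1.95 FPKM at 24 months. Its log2 fold change was 1.40 ± 0.15 (limma adjusted p = 0.0299), while Stau1 had 6.95 ± 0.748 and 7.97 ± 0.766 FPKM.

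The fifth lay in intron 1 of the noncoding gene A330033J07Rik, an intron of 215311 bases. MSTRG.9674.1 (8087 bases, chr13:48225798-48233884, minus strand) had 0.161, 0.344, 0.29, 0.349 and 0.204 FPKM at 3 months, 0.765, 0.906, 0.914, 0.761 and 0 FPKM at 12 months and 1.46, 1.46, 1.96, 2.53 and 1.6 FPKM at 24 months (log2 fold change 1.13 ± 0.14, limma adjusted p = 0.049). MSTRG.9673.1, 31777 bases long and next to it, had 0 to 0.194 FPKM at 3 months and 0.952 to 2.13 FPKM at 24 months (log2 fold change 1.04 ± 0.15, limma adjusted p = 0.111). The call of the latter ended without replicate 34 at 24 months (log2 fold change 0.94) and without replicate 9 at 3 months, where it was at the limit, and when scaled to the intronic transcripts (0.99). The gene had 0.567 ± 0.338 FPKM at 3 months and 1.76 ± 1.01 FPKM at 24 months (SD, n = 5 each; log2 fold change 0.76, limma adjusted p = 0.256). Neither ratio to it, fitted with 1 added to both values, passed the test.

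Qrfpr and Gm15441 held the remaining risers of the first 8. MSTRG.22086.1, opposite to Qrfpr, the receptor of the neuropeptide QRFP (chr3:36216612-36217705, plus strand), had 0.808, 0.889, 0.383, 0 and 0.708 FPKM at 3 months, 2.01, 3.06, 4.66, 1.96 and 3.63 FPKM at 12 months and 3.96, 2.5, 5.18, 4.72 and 3.27 FPKM at 24 months, while Qrfpr itself averaged 0.124 FPKM. Its log2 fold change was 1.67 ± 0.22 at 24 months (limma adjusted p = 0.074) and already 1.38 ± 0.24 at 12 months (limma adjusted p = 0.217), both against 3 months. MSTRG.22987.1 (chr3:96565084-96566045, minus strand) had 7.27, 3.48, 4.87, 7.51 and 6.75 FPKM at 3 months, 10.4, 9.87, 16.8, 18.6 and 1.2 FPKM at 12 months and 12.9, 21.6, 15.1, 15.9 and 17.5 FPKM at 24 months (log2 fold change 1.36 ± 0.21, limma adjusted p = 0.116). Here the host rose with it, from 2.91 ± 1.71 to 9.55 ± 1.73 FPKM (SD, n = 5 each; log2 fold change 1.53, limma adjusted p = 0.0393), and the ratio had a log2 fold change of -0.17 ± 0.24 (limma adjusted p = 0.855).

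In the other direction, 2 members were lower without overlap. The Rhobtb1 fragment whose ends are printed above had 8.53, 9.97, 2.96, 7.61 and 5.84 FPKM at 3 months, 1.05, 0.792, 1.16, 2.26 and 2.46 FPKM at 12 months and 2.12, 0.937, 1.02, 2.14 and 2.68 FPKM at 24 months. It fell by 1.49 ± 0.30 on the log2 scale between 3 and 24 months (limma adjusted p = 0.222) and by 1.62 ± 0.30 between 3 and 12 months (limma adjusted p = 0.237). Rhobtb1 itself had 22.9 ± 3.6, 10.9 ± 2.32 and 14.4 ± 2.41 FPKM (SD, n = 5 each), and the log2 ratio to it was -0.85 ± 0.31 at 24 against 3 months (limma adjusted p = 0.375), short of the fold limit. MSTRG.17605.1, opposite to the neurexin gene Nrxn2 (chr19:6533068-6535789, minus strand), had 6.58, 6.28, 4.68, 4.84 and 5.47 FPKM at 3 months and 0, 4.09, 0, 0 and 4.03 FPKM at 24 months (log2 fold change -1.77 ± 0.53, limma adjusted p = 0.414).

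Among the fallers whose ages overlapped, those in Zfp933 and Deptor had the smallest p, smaller than that of the Nrxn2 member, and each was listed at 0 in every 24-month mouse and in 1 young mouse. MSTRG.26185.1 in the zinc finger gene Zfp933 had 1.95, 0, 1.53, 2.04 and 1.61 FPKM at 3 months (limma adjusted p = 0.314). MSTRG.12476.1 in Deptor, an inhibitor of mTOR, had 2.05, 2.05, 1.53, 0 and 1.52 FPKM at 3 months (limma adjusted p = 0.316), and Deptor itself had 19.2 ± 4.17 FPKM at 3 months and 8.1 ± 8.5 FPKM at 24 months (SD, n = 5 each). The Deptor call ended in an F test with a library covariate (log2 fold change -0.83).

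**Figure D4:**
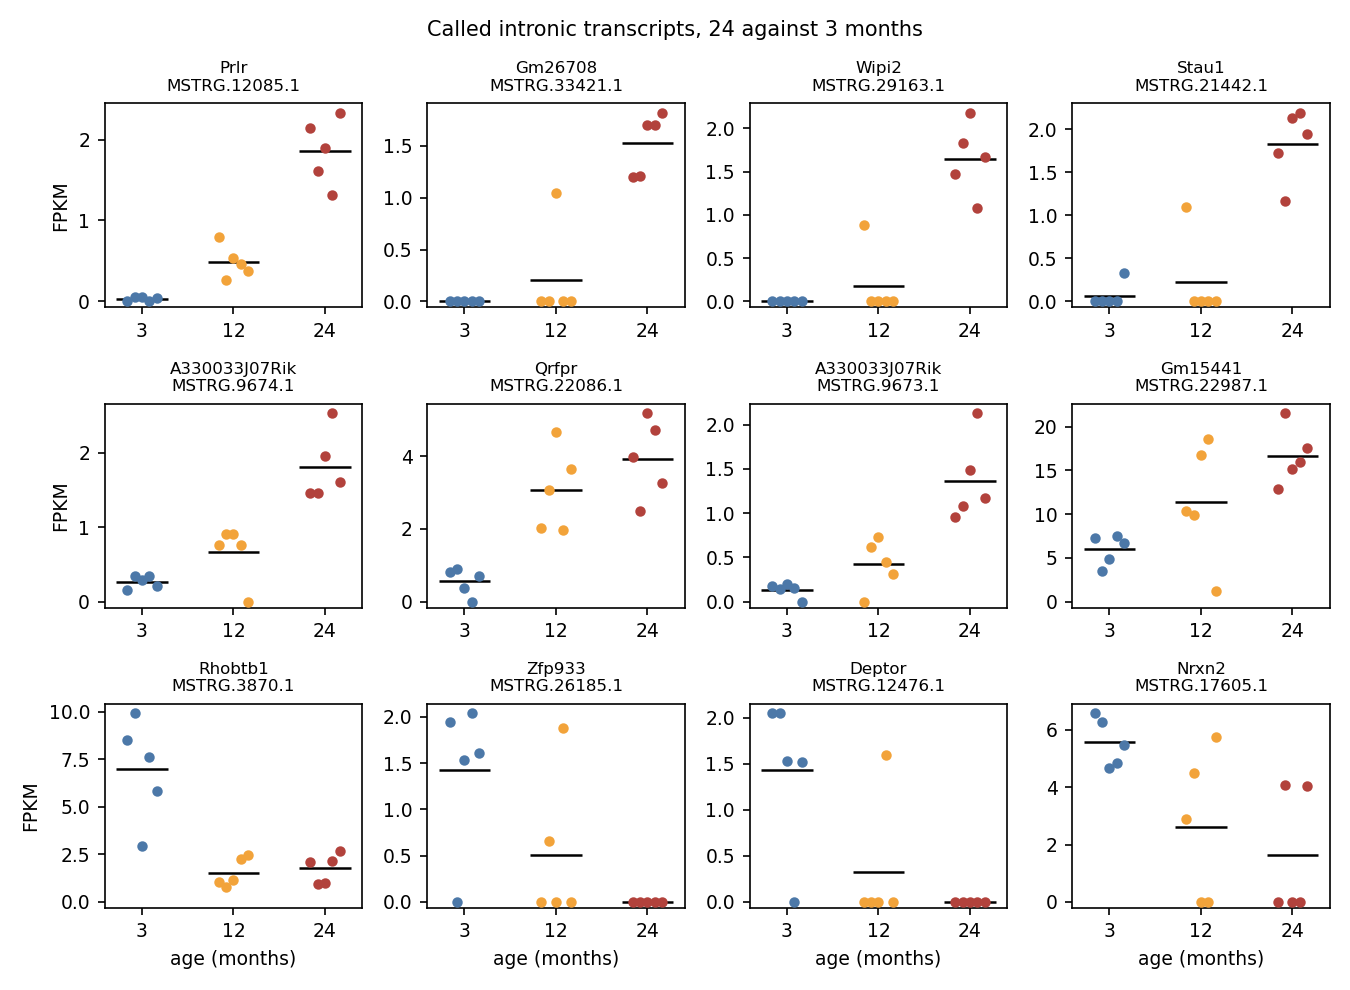
FPKM (vertical axes, each panel with its own scale) by age in months (horizontal axes) of 12 called members for 24 against 3 months, the 8 risers with the smallest p among those whose ages did not overlap, and 4 fallers, of which Rhobtb1 and Nrxn2 did not overlap and Zfp933 and Deptor had the smallest p of the rest, with 1 point per mouse and a line at the mean of 5 mice. The 24-month points lie above the 3-month points in the 8 panels of the upper rows, and in Zfp933 and Deptor all 24-month points sit at 0.

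The change of each called member was set beside that of its host, which was not chosen for its change. For the 66 risers the median log2 fold change was 1.08, which the call itself holds above 1, and that of their hosts was 0.11. The host had the same sign in 48 of the 66, with a p under 0.05 in 16, and was itself called in 2, the hosts of the Prlr and Gm15441 members. For the 23 fallers the medians were -1.18 and -0.052, the host had the same sign in 14, with a p under 0.05 in 3, and was called in 1, Deptor. No share over the hosts of members not called stands beside these counts. They are a description and do not measure how far called members followed their hosts.

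**Figure D5:**
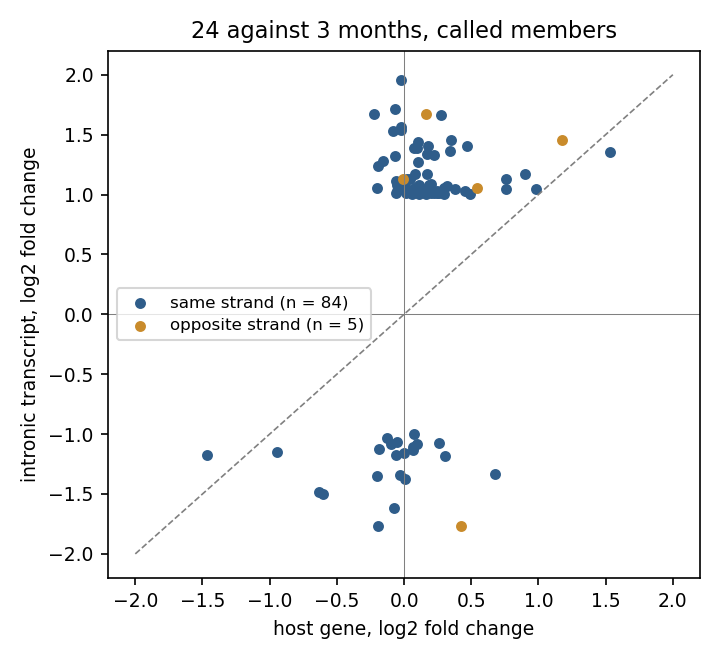
Log2 fold change from 3 to 24 months, on the scale of log2(FPKM + 1), of the 89 called members (vertical axis) against that of the host gene (horizontal axis), blue on the strand of the host and ochre opposite. The dashed line marks equal change. Most hosts lie near 0 while the members lie beyond 1 or -1, as the call required.

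The ratio of member to host was fitted separately, as log2(FPKM + 1) of the member minus log2(FPKM + 1) of the host. The mean FPKM of the members had a median of 0.297, and at such levels the added 1 holds the member's term near 0. A called ratio can then mostly mirror the change of the host. Between 24 and 3 months 153 of 10741 members tested (1.42%) were called by the same limits, beside 1.67% of all 104625 rows. Of these 71 were higher and 82 lower, beside 0.820% and 0.851% of all rows. The split depended on the settings, with 324 higher and 564 lower at a pseudocount of 0.1 and, in the other direction, 55 higher and 31 lower among rows with a mean of at least 0.5 FPKM. Over all rows those settings called 6287 of 104625 and 1467 of 43397. Of the 153, 3 kept an adjusted p under 0.05, beside 0.0354% of all rows. In 149 of the 153 a mouse was listed at 0. The ratio rose for the Gm26708 member (limma adjusted p = 0.0429) and the Stau1 member (log2 fold change 1.23 ± 0.19, limma adjusted p = 0.0958).

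For others the host moved. Between 24 and 3 months the log2 fold changes of host and member were -2.41 and -0.10 for Nfil3, and -0.84 and 0.17 for Atp2a2. Nfil3, a transcription repressor tied to the clock, had 8.1 ± 2.61, 1.11 ± 0.559 and 0.668 ± 0.247 FPKM at 3, 12 and 24 months (SD, n = 5 each). Its member MSTRG.9766.5, of 2 exons in intron 1, had 0, 1.87, 0, 3.38 and 2.63 FPKM at 3 months and 0.924, 1.08, 0.961, 1.31 and 0.775 FPKM at 24 months, and the ratio had a log2 fold change of 2.31 ± 0.30 (limma adjusted p = 0.0473). Atp2a2, the calcium pump of the sarcoplasmic and endoplasmic reticulum, had 131 ± 11.4 FPKM at 3 months and 72.8 ± 1.91 FPKM at 24 months. The opposite-strand MSTRG.28631.1 had 0 to 0.101 FPKM and 0 to 0.567 FPKM at these ages, and the ratio was called higher, just past the fold limit (limma adjusted p = 0.0912). That call ended without replicate 35 at 24 months (0.88), replicate 32 at 24 months (0.97) or replicate 8 at 3 months (0.95).

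The members with the smallest p among the lower ratios were weak, and their hosts rose. The log2 fold changes of host and member were 0.76 and -0.45 for Gm13483 and 0.73 and -0.35 for Mtbp. They were 0.63 and -0.46 for 1110019D14Rik and 0.76 and -0.37 for Nrep. MSTRG.19490.1 in the noncoding gene Gm13483 had 0.666, 0, 0.714, 0.675 and 0 FPKM at 3 months and was listed at 0 in every 24-month mouse, while the gene had 3.57 ± 0.815 and 6.64 ± 0.362 FPKM (SD, n = 5 each; ratio, limma adjusted p = 0.0429). MSTRG.12484.1 in Mtbp, whose product binds Mdm2, and MSTRG.29528.1 in 1110019D14Rik were likewise listed at 0 in every 24-month mouse (ratio, limma adjusted p = 0.112 for Mtbp and limma adjusted p = 0.139 for 1110019D14Rik). Both calls ended without replicate 7 at 3 months, where the log2 fold changes of the ratio were -0.97 and -0.95, and the latter also without replicate 31 at 24 months (-0.99). MSTRG.16608.1 in Nrep had 0, 0.318, 1.81, 0 and 0.221 FPKM at 3 months and 0, 0.26, 0, 0 and 0 FPKM at 24 months (ratio, limma adjusted p = 0.117).

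Between 12 and 3 months 57 of 10753 members (0.530%) were called, beside 0.784% of all rows. Of these 30 were higher and 27 lower, or 0.279% and 0.251%, beside 0.466% and 0.317% of all rows. This balance turned with the settings, to 289 higher and 361 lower at a pseudocount of 0.1, 251 and 299 as TPM, and 2 and 5 with values listed at 0 left out. Those settings called 5862 and 4015 of all rows, and 814 of the 76945 rows tested in the last. In 12 the mice did not overlap, 7 higher and 5 lower, beside 0.194% of all rows, 0.120% higher and 0.0737% lower. MSTRG.38222.1 in intron 5 of Ick, a kinase of the primary cilium (chr9:78141974-78149112, plus strand), had the smallest p and was the 1 called member with an adjusted p under 0.05, beside 0.00481% of all rows. It covers 7139 of the 9255 bases of the intron. It was listed at 0 in all 3-month mice, had 1.49, 1.61, 1.65, 1.67 and 1.33 FPKM at 12 months and 0, 0, 0, 1.04 and 0 FPKM at 24 months (limma adjusted p = 0.00957 for 12 against 3 months). Ick itself had 3.4 ± 0.39, 3.95 ± 0.63 and 4.06 ± 0.666 FPKM (SD, n = 5 each).

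MSTRG.32569.1 in Wtip, which encodes a LIM protein that binds WT1, was listed at 0 in all 3-month mice and had 0.962, 1.43, 1.31, 1.27 and 1.94 FPKM at 12 months (limma adjusted p = 0.0505). In the other direction, MSTRG.10797.1 in the Nudix hydrolase gene Nudt13 had 1.58, 2.31, 1.12, 1.13 and 1.65 FPKM at 3 months and 0, 0, 0, 0.325 and 0.371 FPKM at 12 months (log2 fold change -1.16 ± 0.17, limma adjusted p = 0.157). MSTRG.8684.1 in Eml5, a gene of microtubule-associated proteins, had 1.78, 0.85, 2.49, 1.32 and 0.833 FPKM at 3 months and was listed at 0 in all 12-month mice (limma adjusted p = 0.163).

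Between 24 and 12 months 55 of 10290 members (0.534%) were called, beside 0.402% of all rows. Here 45 were higher at 24 months and 10 lower, or 0.437% and 0.0972%, beside 0.186% and 0.216% of all rows. The split was 315 higher and 223 lower at a pseudocount of 0.1 and 313 higher and 187 lower as TPM, and scaled to the intronic transcripts it was 34 and 23. Of all rows, 3417, 2437 and 613 were called in the same settings. In 10 the mice did not overlap, 9 higher and 1 lower, beside 0.0655% of all rows, 0.0303% higher and 0.0351% lower. With adjustment 3 called members kept a p under 0.05, beside 0.00559% of all rows, and the one of them not described here lay in Mcc and is named after its values were seen. The count was 86 without replicate 31 and 85 without replicate 32 at 24 months. MSTRG.34562.1 in Ifitm10 (chr7:142361214-142370489, minus strand) was listed at 0 in all 12-month mice and had 1.81, 1.38, 1.47, 1.4 and 1.19 FPKM at 24 months (limma adjusted p = 0.0153), with 0, 0, 0, 1.25 and 0 FPKM at 3 months. MSTRG.26333.1 in Ctnnbip1, an inhibitor of beta-catenin (chr4:149548255-149548975, plus strand), was listed at 0 in all 12-month mice and had 3.18, 1.57, 2.67, 3.38 and 4.37 FPKM at 24 months (limma adjusted p = 0.0245). The Ick member was the 1 that was lower without overlap (limma adjusted p = 0.835). The 3 comparisons share their mice in pairs, so that a value listed at 0 enters 2 of them.

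The 8 lists of kidney and regulatory genes were read for members in their introns. For 24 against 3 months the median log2 fold change was -0.16 in the thick limb and podocyte lists and -0.15 in the proximal tubule and splicing lists. It was -0.1 for clock genes, 0.059 for immune genes, 0.12 for receptor genes and 0.17 for collecting duct genes. Of 70 proximal tubule genes 3 held 23 members, of which 0 were called higher and 1 lower, beside 0.465% and 0.330% of all rows. That was MSTRG.27878.1 in Slc4a4, the basolateral sodium bicarbonate cotransporter, with 2.45, 2.41, 2.05, 0 and 0 FPKM at 3 months and listed at 0 in every 24-month mouse (limma adjusted p = 0.577), in a host at 184 ± 18.9 and 169 ± 20.2 FPKM (SD, n = 5 each). The call ended when replicate 5, 6 or 7 at 3 months was left out (-0.84, -0.85 and -0.89) and in the F test with a library covariate (-0.78). MSTRG.23441.1 in Dpyd, the first enzyme of pyrimidine breakdown, was above 0 in all 15 mice, with 0.969 ± 0.357 FPKM at 3 months and 1.09 ± 0.362 FPKM at 24 months.

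Of 35 genes of the thick limb and distal tubule, 6 held 44 members with 0 called, beside 0.795% of all rows. Their median log2 fold change was -0.16, beside 0.01 over all members tested. The highest was MSTRG.16212.1 of 36059 bases in Slc8a1, the sodium-calcium exchanger, at 5.8 ± 2.1, 5.1 ± 0.653 and 4.13 ± 0.322 FPKM (SD, n = 5 each). MSTRG.931.1 in Erbb4, a neuregulin receptor, had 2.51 ± 0.627, 2.38 ± 0.433 and 2.49 ± 0.203 FPKM. Of 26 collecting duct and intercalated cell genes, 1 held members, Atp6v1g3, a proton pump subunit. MSTRG.1975.1 covers 7858 of the 9818 bases of its intron 1 and had 1.96 ± 1.24, 1.47 ± 0.508 and 1.93 ± 0.791 FPKM, and MSTRG.1976.1 was above 0 in 2 mice.

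Of 32 podocyte, endothelial and stromal genes, 9 held 56 members with 0 called, beside 0.795% of all rows. Of these members 6 had an unadjusted limma p under 0.05 in the lower direction (beside 2.47% of all rows), and the median log2 fold change was -0.16. Magi2, a scaffold of the podocyte slit diaphragm, held the highest pair. MSTRG.26786.1 of 52433 bases had 3.67 ± 1.09, 3.22 ± 0.183 and 2.34 ± 1.36 FPKM, and MSTRG.26787.1 of 73829 bases had 3.63 ± 0.481, 2.77 ± 0.359 and 2.62 ± 0.754 FPKM (SD, n = 5 each). Of 30 immune genes, 5 held 24 members, and of the 22 tested 0 were called, beside 0.795% of all rows. With so few members, 0 calls is near that share. It is thus no contrast to the higher B and plasma cell marker sums of the older mice given above. The highest immune members were MSTRG.5178.1 and MSTRG.5182.1 in Ikzf1, the lymphoid transcription factor Ikaros, at 0.529 and 0.417 FPKM over the 15 mice.

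Of 24 clock and clock-output genes 3 held 1 member each, and 0 were called, beside 0.795% of all rows. MSTRG.38070.1 in Rora, the nuclear receptor that activates Bmal1 transcription, covers 72169 bases in 2 exons of intron 1 (chr9:68669318-68754448, plus strand). It had 1.53, 1.99, 2.43, 2.01 and 2.22 FPKM at 3 months, 3.85, 4.05, 3.72, 3.53 and 3.68 FPKM at 12 months and 4.5, 5.38, 4.68, 5.99 and 4.09 FPKM at 24 months. No pair of ages overlapped, and the log2 fold change of 0.96 ± 0.13 between 24 and 3 months (limma adjusted p = 0.0772) was just under the fold limit. It passed that limit and was called with a pseudocount of 0.1 (1.24), as TPM (1.21), and without replicate 7 at 3 months (1.01) or replicate 35 at 24 months (1.02). Rora itself had 7.72 ± 1.53 FPKM at 3 months and 9.93 ± 2.42 FPKM at 24 months (SD, n = 5 each; log2 fold change 0.32, limma adjusted p = 0.427), and the ratio had a log2 fold change of 0.65 ± 0.25 (limma adjusted p = 0.404). MSTRG.1329.1, opposite to the clock repressor Per2, had 3.13 ± 1.23, 3.82 ± 0.415 and 2.15 ± 0.605 FPKM, while Per2 had 4.81 ± 0.982, 4.63 ± 1.34 and 9.29 ± 3.01 FPKM. Its ratio to Per2 was called lower (log2 fold change -1.14 ± 0.36, limma adjusted p = 0.315).

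Of 36 hormone and growth factor receptor genes, 14 held 49 members, of which 2 were called higher and 1 lower, beside 0.465% and 0.330% of all rows, with a median log2 fold change of 0.12. Beside the Prlr member, MSTRG.35098.1 in Fgfr1 was listed at 0 in all 3-month mice and had 0.799, 2.84, 0, 0 and 4.32 FPKM at 24 months (limma adjusted p = 0.624). MSTRG.34400.1 in Fgfr2 had 0, 3.2, 2.11, 2.51 and 2.41 FPKM at 3 months and 0, 2.15, 0, 0 and 0 FPKM at 24 months (log2 fold change -1.13 ± 0.46, limma adjusted p = 0.593). Each of these 2 calls was lost in 8 of the 10 fits that left out 1 mouse and with all 15 mice in 1 fit, and that of Fgfr1 also in the F test with a library covariate (0.93). The Esrrg member was the highest of the list, followed by MSTRG.19555.1 in Acvr1, an activin receptor, with 1.84, 1.56, 3.42, 3.16 and 0 FPKM at 24 months and 1.36 to 3.33 FPKM at 3 months.

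Of 44 splicing factor and kinase genes, 6 held 16 members, of which 0 were called higher and 1 lower, beside 0.465% and 0.330% of all rows. That was MSTRG.14803.1 in Qk, an RNA-binding regulator of splicing, with 7.75, 6.16, 5.09, 0 and 3.7 FPKM at 3 months and 0, 0, 0, 0 and 2.97 FPKM at 24 months (log2 fold change -1.76 ± 0.63, limma adjusted p = 0.529). The call ended in the F test with a library covariate (log2 fold change -1.23). MSTRG.20067.13, of 2 exons in intron 1 of the splicing regulator Celf1, had 4.96 ± 1.01, 4.81 ± 1.37 and 7.1 ± 2.49 FPKM (SD, n = 5 each).

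Of the 3 members with printed sequence, the Rhobtb1 fragment was the 1 called under the main settings. The Kat8 fragment was called with a pseudocount of 0.1 (log2 fold change 1.26), as TPM and, at the fold limit, in the F test with a library covariate, and the Cdcp1 fragment in that F test (1.79) and without replicate 5, 6 or 9 at 3 months (1.43, 1.42 and 1.42). The Kat8 antisense fragment had 0.635, 1.55, 1.41, 0.791 and 2.05 FPKM at 3 months, 2.96, 2.09, 2.48, 2.17 and 2.58 FPKM at 12 months and 3.93, 3.24, 1.68, 2.83 and 3.88 FPKM at 24 months (log2 fold change 0.85 ± 0.23, limma adjusted p = 0.363), while Kat8 had 4.49 ± 1.05 and 4.16 ± 1.03 FPKM at 3 and 24 months (SD, n = 5 each). The Cdcp1 fragment had 4.89, 4.71, 0, 0 and 4.72 FPKM at 3 months and 8.07, 4.38, 4.11, 5.14 and 6.17 FPKM at 24 months (log2 fold change 1.17 ± 0.58, limma adjusted p = 0.685), and with values listed at 0 left out the log2 fold change was 0.16. The study named these 3 transcripts from these libraries, so that their direction here is not independent evidence. It also reports qRT-PCR of all 3 in young and old kidney (n = 5), with results that matched its sequencing, and names no separate mice for it.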

How the data were processed

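Kidney RNA of 15 mice was sequenced, and the authors aligned and assembled the reads, with TopHat2 and StringTie named in the submitters' processing notes and Bowtie2, HISAT2 and StringTie in the methods. The authors deposited a table of linear transcripts with class codes, coordinates, FPKM and coverage (signal) per mouse, and a table of circular RNAs with estimated counts per mouse. The coordinates matched GENCODE M21 (GRCm38), in which 92459 of 92904 reference transcripts were found and 88991 had the same start and end. The aligned bases of a transcript were taken as deposited coverage times length.

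Members were the transcripts with class code i. Values of log2(FPKM + 1) were fitted with limma 3.58.1 (R 4.3.3, trended prior) for each row that had a value above 0 among the mice of that comparison. Calls required a limma p below the limit of 0.05 without adjustment together with a log2 difference of more than 1 in size. Adjustment (Benjamini-Hochberg) was made over the whole table. The ratio to the host was fitted likewise. The labels do not say more of how mice were handled, so that p-values measure the spread between these mice. Correlations used 100000 permutations (scipy 1.17.1). On simulated data for 24 against 3 months over 124719 rows, 94.5% of 200 rows changed by 1.5 on the log2 scale were recovered, and 0.435% of the others were called. The 200 were drawn only from rows above a set mean level and below a set spread. The simulated noise was normal, without an excess of values at 0. Recovery in low or variable rows was therefore not tested. Whether these rates hold for the intronic members was not tested. Their mean FPKM had a median of 0.297, and 82 of the 89 members called for 24 against 3 months had a mouse listed at 0. Depth was 3.54 to 5.7 Gb of aligned bases per mouse, and how far it limits precision was not tested.

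Named members were the 10 highest with a host, up to 8 called members by smallest p in each direction without overlap for 24 against 3 months (filled to at least 4), the first 2 per direction for the other age comparisons, up to 4 per direction for the ratio, the 5 hosts with most members, the transcripts named by the study, the 2 highest and any called member of each host list, and the 3 longest overlaps with intronic circular RNAs. Of the last, the results of 1 host gene are not reported here. Members and lists were chosen with earlier results of these data known. Alternatives were another pseudocount, a filter on low values, TPM, scaling to the intronic transcripts, all mice in 1 fit, a robust prior, an F test with a library covariate, another host definition, each mouse left out in turn and, chosen after seeing the data, values listed at 0 left out.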

Additional observations from a re-analysis of the deposited data

Results flagged for a closer look

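Groups of 5 mice were tested for 1 mouse standing far from the other 4 (Dixon's test at 95%). They covered the members named for their level, their change between 24 and 3 months or their sequence, and the intronic totals per mouse. Of 78 groups, 12 stood out. Where the other 4 mice share the same value, any different value stands out. Most of the groups also come from members chosen for their values, so the 12 were not set against an expected number. Of the abundant members, the Ppargc1a member MSTRG.27413.1 had 17.7 FPKM in replicate 19 at 12 months, against 8.74 to 11.2 FPKM in the other mice. MSTRG.20774.10, opposite to Gm14232, had 11.5 FPKM in replicate 9 at 3 months against 4.17 to 5.5 FPKM, and 8.87 FPKM in replicate 32 at 24 months against 14.8 to 17 FPKM.

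Among the members that rose, 1 mouse was above 0 where the others were listed at 0. The Stau1 member MSTRG.21442.1 had 0.336 FPKM in replicate 9 at 3 months and 1.1 FPKM in replicate 17 at 12 months. The Wipi2 member MSTRG.29163.1 had 0.887 FPKM in replicate 17 and the Gm26708 member MSTRG.33421.1 had 1.05 FPKM in replicate 19, both at 12 months. In A330033J07Rik, MSTRG.9674.1 was listed at 0 in replicate 21 at 12 months against 0.761 to 0.914 FPKM, and MSTRG.9673.1 was listed at 0 in replicate 9 at 3 months against 0.148 to 0.194 FPKM.

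Among the members that fell, the Zfp933 member MSTRG.26185.1 was listed at 0 in replicate 6 at 3 months against 1.53 to 2.04 FPKM. The Deptor member MSTRG.12476.1 was listed at 0 in replicate 8 at 3 months against 1.52 to 2.05 FPKM, and had 1.6 FPKM in replicate 20 at 12 months where the other mice were listed at 0.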

How the results depend on the processing

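No paired analysis was possible because the ages share no replicate number. The number of called members depended on the pseudocount and on the values listed at 0. For 24 against 3 months it was 89, and it was 694 with a pseudocount of 0.1 (392 higher, 302 lower), 615 with TPM (374 higher, 241 lower), 135 in the F test with a library covariate (79 higher, 56 lower), 5 with adjusted p and 30 with values listed at 0 left out (27 higher, 3 lower), of which 12 were among the 89. Of all 124719 rows, the pseudocount, TPM and F test called 6099, 4262 and 1378, and 22 were called with adjusted p. With values listed at 0 left out, 2233 members and 76775 rows were tested, and 824 of the rows were called. For 12 against 3 months it was 57, and 650 (289 higher, 361 lower), 550 (251 and 299), 1 and 7 (2 and 5) with a pseudocount of 0.1, TPM, adjusted p and values listed at 0 left out. All rows gave 5862, 4015 and 6 of 124761, and 814 of 76945 in the last setting, which tested 2202 members. For 24 against 12 months it was 55, and 538, 500, 3 and 9 in the same order. All rows gave 3417, 2437 and 7 of 125282, and 406 of 80054 in the last setting, which tested 2151 members. For the ratio it was 153, and 888 with a pseudocount of 0.1 (324 higher, 564 lower), 3 with adjusted p and 86 (55 and 31) among rows with a mean of at least 0.5 FPKM. All rows gave 6287 and 37 of 104625, and 1467 of 43397 in the last setting, which tested 3362 members.

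With each mouse left out the counts ran from 87 to 115 for 24 against 3 months, 54 to 78 for 12 against 3 months, 55 to 86 for 24 against 12 months and 152 to 219 for the ratio. The intronic share of bases ran from 3.16 to 3.24% at 3 months, 2.93 to 3.06% at 12 months and 3.29 to 3.51% at 24 months. As a share of summed FPKM it was 2.37, 2.19 and 2.64%, and over rows above 0 in all 15 mice 1.86, 1.69 and 1.87%. The median correlation with the host ran from 0.083 to 0.12 on the same strand and 0.068 to 0.15 on the opposite strand, and was 0.32 and 0.51 for members with a mean of at least 5 FPKM. Over all members with a host it was 0.0023 and 0.017. The number of abundant members with an adjusted p under 0.05 for rho was 3, and 1 to 4 with a mouse left out, namely 1 without replicate 6 at 3 months or replicate 17 at 12 months.

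Members that were not called changed sign for 24 against 3 months as follows. With a mouse left out the log2 fold changes ran from -0.46 to 0.98 for Camk2b, -0.01 to 0.31 for Csrp2, -0.01 to 0.19 for Dpyd and -0.53 to 0.00 for Acvr1, and with values listed at 0 left out Camk2b had -0.46 and Acvr1 0.00. Erbb4 had -0.07 scaled to the intronic transcripts, -0.15 in the F test and -0.04 to 0.10 with a mouse left out. MSTRG.1975.1 in Atp6v1g3 had -0.04, -0.34 and -0.14 to 0.25 in the same order. MSTRG.5182.1 in Ikzf1 had -0.23 with a pseudocount of 0.1, -0.02 with TPM, -0.16 in the F test and -0.18 to 0.13 with a mouse left out, the lowest without replicate 33 at 24 months. The cause was not tested. Over the named members, leaving out a mouse kept direction and call in 532 cases, lost the call in 27, gained one in 5 and turned the sign in 15, and the other settings did so in 387, 8, 6 and 9 cases. How far depth limits the low members was not tested, and the number above 0 was lower in the deeper libraries.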
